A study of Mus musculus with 6 samples.

Results

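Bdh1, Oxct1, Slc16a1 and Creb3l3 stand for the making, export, use and transcriptional control of ketone bodies. Their probes were found by gene name, and they are 4 of the 27962 gene names on the array. All of their probes were used, which gave 9 of the 41174 probes other than control spots: 2 for Bdh1, 3 for Oxct1, 3 for Slc16a1 and 1 for Creb3l3. All 9 were well above background on all 6 arrays and all 9 were tested, so no member was lost to the filter on dim probes.

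The livers came from liver-specific SIRT1 knockout mice (SIRT1 LKO) and from Lox control mice (Control); SIRT1 is a deacetylase that needs NAD. Both groups were male, 10 weeks old, of a background that was 95% C57BL/6, fed chow with free access to it, and killed at 4 pm, so neither group was fasted. RNA of 2 mice was pooled for each array, giving 3 pools and 6 mice per group. Neither the promoter that drove the recombinase nor the exons removed could be taken from the sample labels or series text.

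When fat is oxidised faster than the citric acid cycle takes up its acetyl-CoA, liver mitochondria turn the surplus into acetoacetate. Bdh1, 3-hydroxybutyrate dehydrogenase of the inner mitochondrial membrane, reduces acetoacetate to 3-hydroxybutyrate. Slc16a1 encodes the monocarboxylate transporter MCT1, which carries ketone bodies, lactate and pyruvate across the plasma membrane with a proton. Oxct1, succinyl-CoA:3-ketoacid CoA transferase, starts the use of ketone bodies in heart, brain, kidney and muscle, and hepatocytes hold little of it, which is why liver exports ketone bodies and does not burn them. Creb3l3 encodes CREBH, a liver and gut transcription factor held in the endoplasmic reticulum and released by proteolysis in the Golgi, which works with PPAR-alpha on genes of fasting metabolism.

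The 3 dimmest probes include both with an unadjusted p under 0.05, and their deposited sequences are shown 5′ to 3′ so that the measured stretch of transcript can be seen. Positions are those of the scanner files, on mm7, plus strand. Oxct1 probe 2 was assigned to chr15:3929522-3956535, a span of 27014 bases for 60 bases of probe, so its target is interrupted in the genome. Oxct1 probe 3 was assigned to chr15:3928818-3929481, a span of 664 bases, and is likewise interrupted. Slc16a1 probe 3 lies without interruption at chr3:104447144-104447203.
Oxct1 probe 2: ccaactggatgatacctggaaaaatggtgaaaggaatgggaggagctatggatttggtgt
Oxct1 probe 3: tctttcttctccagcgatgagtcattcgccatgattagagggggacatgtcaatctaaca
Slc16a1 probe 3: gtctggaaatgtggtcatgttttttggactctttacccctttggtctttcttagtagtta

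Values are log2 of the processed intensity minus the log2 75th percentile of the same array, so 0 is the level of a fairly bright probe and a difference of 1 is a doubling. Levels of different probes depend on the probe as well as the transcript and are not set against each other. The 75th percentiles were 1007 to 1289 intensity units in the LKO arrays and 1005 to 1056 in the Control arrays, and 60.2% to 66.4% of probes were well above background in the LKO arrays, against 52.2% to 64.4% in the Control arrays. Precision is limited by the number of arrays. A single slide held the 3 Control arrays, LKO pools 1 and 2 shared another and LKO pool 3 lay on its own, so slide and genotype cannot be told apart. For LKO pool 3 the deposited value table and the scanner file differ (median ratio 0.719, with 0.858% of probes within 1%), whereas for the other 5 arrays at least 99.8% of probes were within 1%. Differences from the value table, and with LKO pool 3 left out, are therefore given beside the results they move.

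Sirt1 itself was only slightly lower in the LKO livers. Its brighter probe read -0.07, 0.09 and 0.16 in the LKO pools, against 0.29, 0.37 and 0.24 in the Control pools. All 3 LKO pools lay below all 3 Control pools, with a log2 difference of -0.24 (SE 0.10, adjusted p = 0.243), which did not pass. A second probe differed by -0.02 (adjusted p = 0.941; -0.19 from the value table and -0.13 with LKO pool 3 left out), and since the exons removed are not known these probes do not check the genotype labels.

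The question asked of the 4 genes was whether their transcripts differed between the livers labelled SIRT1 LKO and Control. None of the 9 probes passed an adjusted p of 0.05 (limma, Benjamini-Hochberg over 23592 probes), where 15 of all tested probes passed, which is 0.0636%. With the deposited value table in place of the scanner files, 0 of the 9 passed, beside 1.31% of all tested probes, and with LKO pool 3 left out 0 of the 9 passed, beside 2.96%. At an unadjusted p under 0.05 there were 2 of the 9, Oxct1 probe 2 and Slc16a1 probe 3, beside 21.2% of all tested probes. The LKO and Control pools did not overlap for 1 of the 9, Oxct1 probe 2, beside 28.8% of all tested probes. From the value table other probes separated the groups, Bdh1 probe 2 with LKO below and Slc16a1 probe 1 with LKO above, while Oxct1 probe 2 did not, which makes 2 of the 9, beside 34% of all tested probes. The differences of the 9 were positive for 5 and negative for 4, with a median of 0.03, and the median over all tested probes was 0.02. By these counts the members did not stand out from the array.

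**Figure D1:**
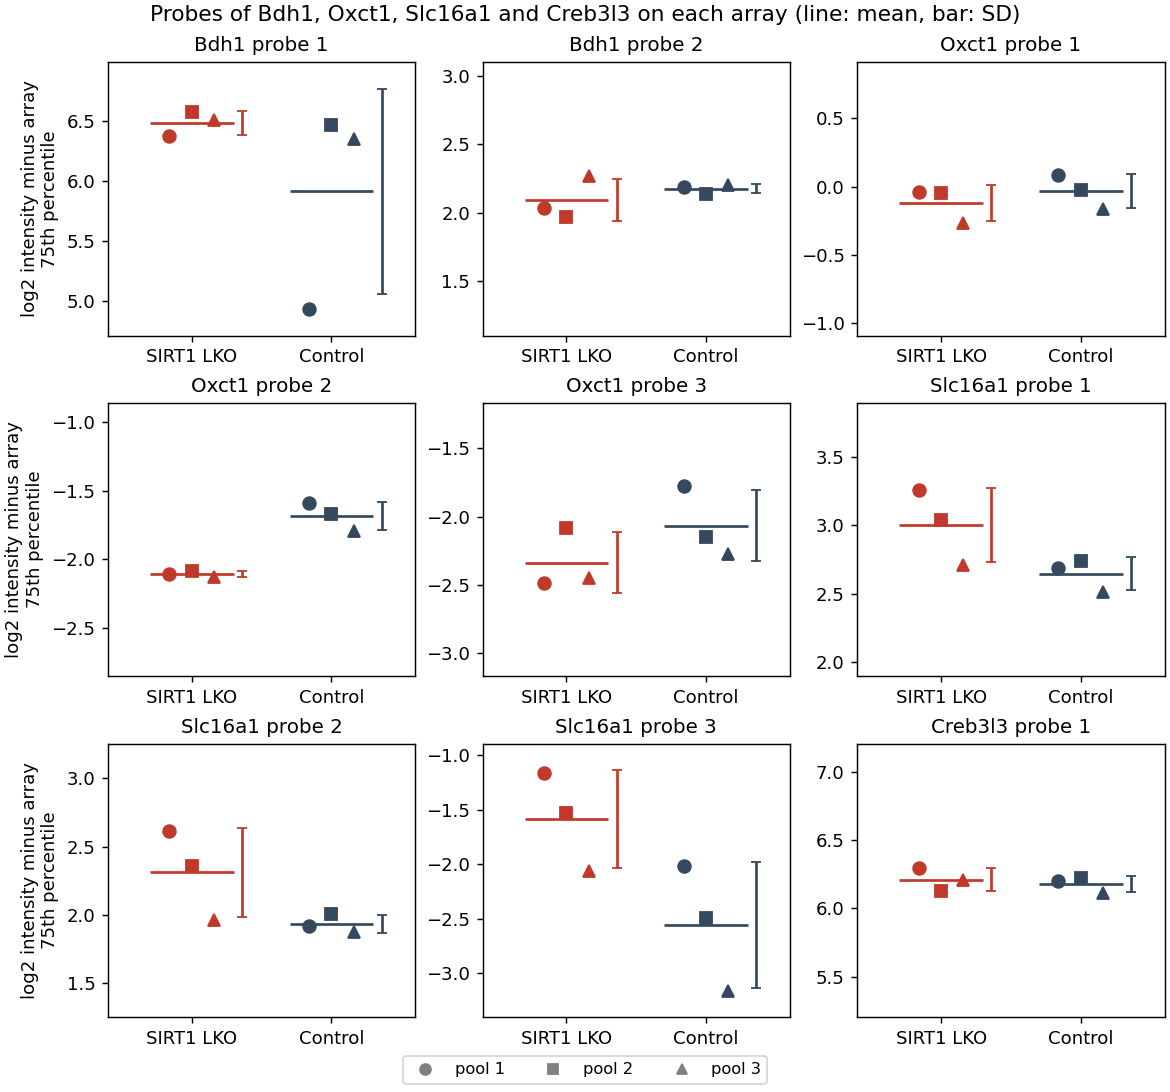
Log2 intensity minus the array's 75th percentile (vertical axis) of each of the 9 probes in the 3 SIRT1 LKO pools (red) and the 3 Control pools (dark blue). The line is the mean and the bar the SD; in these scanner values only Oxct1 probe 2 separates the groups, and Control pool 1 lies far below the other pools for Bdh1 probe 1.

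Bdh1, the enzyme that reduces acetoacetate to 3-hydroxybutyrate, gave no difference between the genotypes that passed on either of its probes. Probe 1, at chr16:31131721-31131780, read 6.38, 6.57 and 6.51 in the LKO pools, against 4.93, 6.47 and 6.35 in the Control pools. The groups overlapped, and Control pool 1 alone was low while the other 5 pools lay close together. The means were 6.49 ± 0.10 in the LKO pools and 5.92 ± 0.85 in the Control pools (SD, n = 3 each). They differed by 0.57 on the log2 scale (SE 0.40, 95% interval -0.38 to 1.52, adjusted p = 0.443).

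That difference rested on Control pool 1. Without it the log2 difference was 0.08 (SE 0.12, adjusted p = 0.752). On that array the spot deviated from the median of the other arrays by -1.54 on the log2 scale, whereas its 61 neighbouring spots had a median of 0.11 (range -0.73 to 1.70). Of 28184 spots well above background, 55, this spot included, were more than 1 log2 unit low on Control pool 1 with an SD under 0.15 over the other arrays.

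Bdh1 probe 2, at chr16:31132538-31132597, read 2.03, 1.97 and 2.27 in the LKO pools, against 2.19, 2.14 and 2.20 in the Control pools. No pool stood apart for this probe, Control pool 1 included, and the groups overlapped. Its log2 difference was -0.08 (SE 0.11, 95% interval -0.35 to 0.18, adjusted p = 0.687), opposite in sign to probe 1. From the value table LKO pool 3 read 1.54, so that all LKO pools lay below the Control pools, and the difference was -0.33 (adjusted p = 0.210); with LKO pool 3 left out it was -0.17 (adjusted p = 0.224). From the scanner files, the interval of probe 2 leaves out a change of Bdh1 transcript as large as 1 log2 unit in either direction. The interval of probe 1 leaves out a fall of that size but includes a rise of that size.

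A list of related enzymes gives the setting for Bdh1. Of 10 listed genes of ketone body synthesis and use, 7 were tested, 2 were higher and 5 lower in the LKO livers, and none passed. Their median difference was -0.09. The list also holds Acat2 and Hmgcs1, cytosolic enzymes that serve sterol synthesis. Acat2 was its middle gene, at -0.09 and, without LKO pool 3, at 0.07, so these medians are not values of a ketogenic enzyme. Oxct2a, Oxct2b and Hmgcll1 were not tested. The median of the list was -0.18 from the value table and 0.07 with LKO pool 3 left out, so its sign was not stable (1 higher and 6 lower from the value table, 4 higher and 3 lower without the pool). With that pool left out 1 of the 7 passed, beside 2.96% of all tested probes.

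Bdh2, a cytosolic relative of Bdh1, read 3.55, 3.56 and 3.20 in the LKO pools, against 3.93, 4.18 and 3.82 in the Control pools. Every LKO pool lay below every Control pool, with a log2 difference of -0.54 (SE 0.15, 1.45-fold lower, adjusted p = 0.131). From the value table LKO pool 3 read 3.97, inside the Control range, and the Bdh2 difference was -0.28 (adjusted p = 0.299). Acat1, the mitochondrial thiolase that condenses acetyl-CoA, differed by 0.10 (adjusted p = 0.574; -0.02 from the value table). Aacs, the cytosolic synthetase that directs acetoacetate to lipid, averaged 5.62 ± 0.66 in the LKO pools and 5.01 ± 0.31 in the Control pools (SD, n = 3 each; log2 difference 0.61, adjusted p = 0.343), with LKO pool 3 inside the range of the Control pools. Without that pool the Aacs difference was 0.98 (adjusted p = 0.0603).

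**Figure D2:**
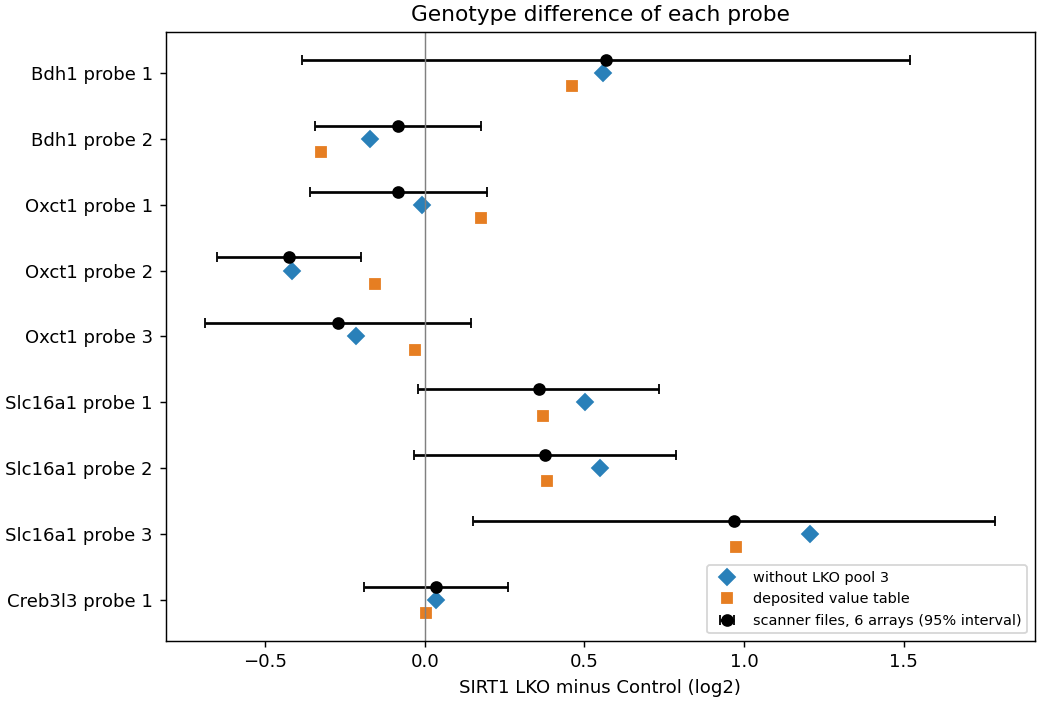
Log2 difference, SIRT1 LKO minus Control (horizontal axis), of each of the 9 probes from the scanner files with its 95% interval (black), without LKO pool 3 (blue) and with the deposited value table (orange). The 3 Slc16a1 probes are above 0 from all 3 sources, and Oxct1 probe 1 changes sign with the value table.

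Slc16a1, a transporter through which ketone bodies can leave the cell, was higher in the LKO livers on all 3 of its probes, but none of them passed. Probe 1, at chr3:104451002-104451061, read 3.26, 3.04 and 2.71 in the LKO pools, against 2.69, 2.74 and 2.52 in the Control pools. LKO pools 1 and 2 lay above every Control pool, and LKO pool 3 lay among them, or at 2.75 just above them from the value table. The log2 difference was 0.36 (SE 0.16, 95% interval -0.02 to 0.73, 1.28-fold, adjusted p = 0.255).

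Probe 2, at chr3:104450896-104450956 beside probe 1, read 2.61, 2.36 and 1.97 in the LKO pools, against 1.92, 2.01 and 1.88 in the Control pools. The order was the same, with LKO pools 1 and 2 high and LKO pool 3 within the Control range. Its log2 difference was 0.38 (SE 0.17, 1.30-fold, adjusted p = 0.265).

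Probe 3, whose sequence is given above and which lies several kilobases from the other probes, was much dimmer. It read -1.17, -1.53 and -2.06 in the LKO pools, against -2.01, -2.49 and -3.16 in the Control pools. The groups overlapped only through LKO pool 3, which was just below Control pool 1. The means were -1.59 ± 0.45 in the LKO pools and -2.56 ± 0.58 in the Control pools (SD, n = 3 each). That is a log2 difference of 0.97 (SE 0.34, 95% interval 0.15 to 1.79, 1.96-fold, unadjusted p = 0.0267, adjusted p = 0.183).

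The 3 probes measure the same gene in the same pools and are not independent of each other. Without LKO pool 3 the log2 differences were 0.50, 0.55 and 1.21 for probes 1, 2 and 3 (adjusted p = 0.0682, 0.0576 and 0.0945), still short of the threshold. With the value table they were 0.37, 0.38 and 0.97 (adjusted p = 0.176, 0.199 and 0.141). With normexp background correction they were 0.32, 0.19 and 0.63 (adjusted p = 0.747, 0.870 and 0.757). All 3 passed under array weights, a setting under which 4817 of all tested probes passed (20.4%).

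**Figure D3:**
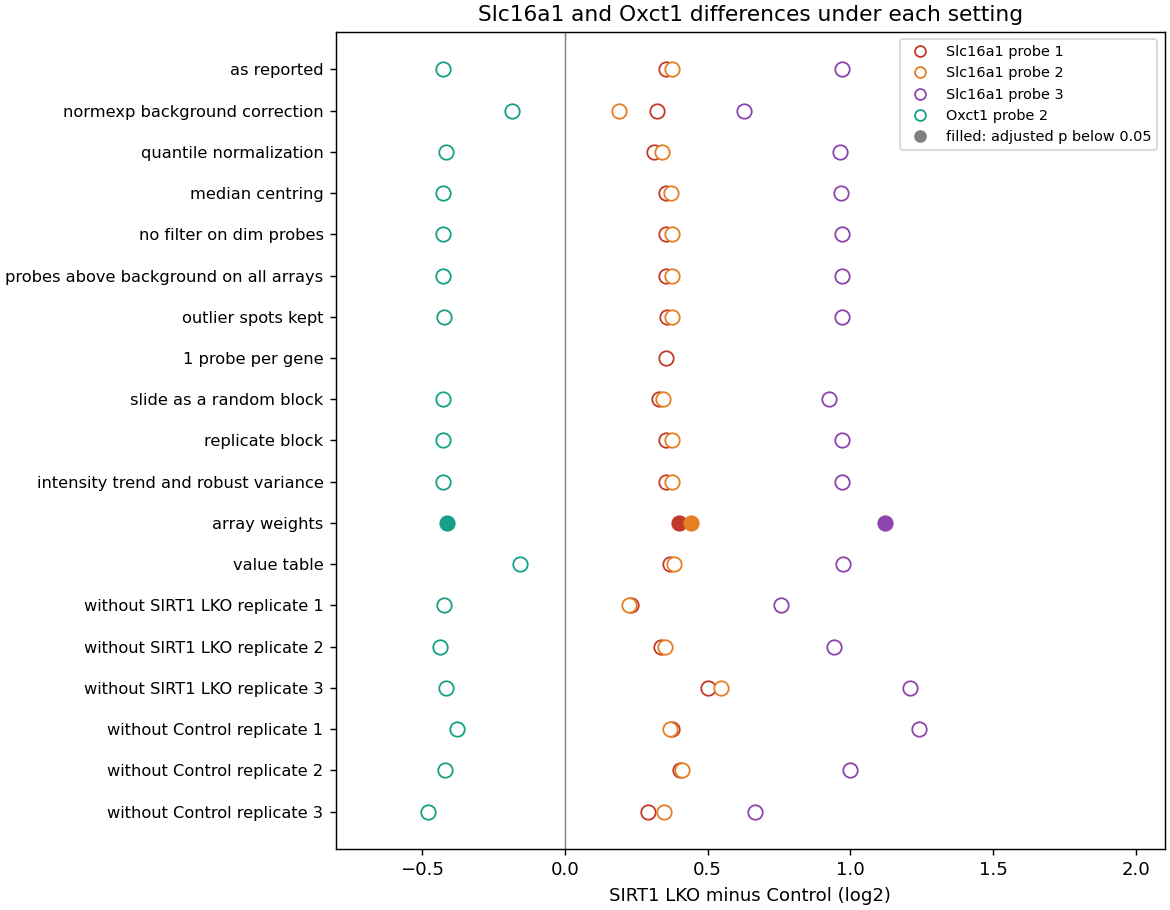
Log2 difference, SIRT1 LKO minus Control (horizontal axis), of the 3 Slc16a1 probes and Oxct1 probe 2 under each way of processing the arrays (rows). Filled points have an adjusted p below 0.05, which happened with array weights alone; Slc16a1 stays above 0 and Oxct1 probe 2 below 0 in every row.

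Among other monocarboxylate carriers no common direction was seen. Of 14 listed transporters and chaperones, 11 were tested, 6 were higher and 5 lower in the LKO livers, none passed, and their median difference was 0.12. Slc16a4, Slc5a8 and Slc5a12 were not tested. Slc16a12, a creatine carrier, read 2.44, 2.30 and 2.29 in the LKO pools, against 1.81, 1.65 and 2.08 in the Control pools. Every LKO pool lay above every Control pool, with a log2 difference of 0.50 (SE 0.13, adjusted p = 0.125). The groups overlapped in the value table, where the difference was 0.38 (adjusted p = 0.204).

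Slc16a13 was lower in every LKO pool (log2 difference -0.60, SE 0.22, adjusted p = 0.200, or -0.40 without LKO pool 3). So was Emb, embigin, a membrane partner of these transporters (log2 difference -0.45, adjusted p = 0.201). Emb was dim, and was well above background in all 3 LKO pools but in only 2 Control pools. From the value table Emb overlapped between the groups and differed by -0.18 (adjusted p = 0.531). Bsg, basigin, the chaperone that brings MCT1 to the plasma membrane, differed by 0.13 (SE 0.10, adjusted p = 0.486; 0.07 from the value table and also without LKO pool 3). Slc16a7, which encodes the related carrier MCT2, differed by 0.18 (adjusted p = 0.584; -0.01 from the value table and 0.03 without LKO pool 3).

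Oxct1, the enzyme that lets a tissue burn ketone bodies, gave no difference that passed on any of its 3 probes. Probe 1, at chr15:3981557-3981616, was the brightest and read -0.04, -0.05 and -0.27 in the LKO pools, against 0.08, -0.03 and -0.16 in the Control pools. The groups overlapped and the log2 difference was -0.08 (SE 0.12, adjusted p = 0.710). With the value table it was 0.17 (adjusted p = 0.547), the opposite sign, and without LKO pool 3 it was -0.01.

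Oxct1 probe 2 read -2.11, -2.09 and -2.13 in the LKO pools, against -1.59, -1.67 and -1.79 in the Control pools. The 3 LKO pools were nearly equal and all lay below the Control pools. The log2 difference was -0.42 (SE 0.09, 95% interval -0.65 to -0.20, 1.34-fold lower, unadjusted p = 0.00329, adjusted p = 0.101). With the value table LKO pool 3 read -1.32 and the groups overlapped, and the difference was -0.16 (adjusted p = 0.686). With normexp background correction of the scanner files the difference was -0.19 (adjusted p = 0.943).

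Oxct1 probe 3 read -2.48, -2.08 and -2.45 in the LKO pools, against -1.78, -2.15 and -2.27 in the Control pools. LKO pool 2 lay among the Control pools, and the log2 difference was -0.27 (SE 0.17, adjusted p = 0.405), or -0.03 from the value table. These are bulk samples, in which fewer cells of a type and less RNA per cell cannot be told apart. Summed over their markers, relative to the array's 75th percentile on a linear scale, Kupffer cell and macrophage genes reached 68.8 to 87.2 in the LKO pools and 58.5 to 104 in the Control pools, and endothelial genes 20.6 to 25.6 in the LKO pools and 21.1 to 26.6 in the Control pools. Of 11 Kupffer cell and macrophage markers 1 was higher and 10 were lower in the LKO livers, none past the threshold (median difference -0.17). From the value table this turned round, with 10 higher and 1 lower (median 0.22), and without LKO pool 3 it was 5 higher and 6 lower. Their part in the Oxct1 values was not tested. Of 8 tested lymphocyte markers 2 were higher and 6 lower, or 6 higher and 2 lower from the value table, and of 6 striated muscle markers, from a tissue rich in Oxct1, 0 were bright enough to be tested. Of 5 adipose markers only Cfd was tested, with a log2 difference of -3.44 that did not pass (-2.69 from the value table and -2.65 without LKO pool 3). Cfd was well above background in all 3 Control pools but in only 2 LKO pools. Hepatocyte markers were all detected and summed to 1335 to 1614 in the LKO pools and 1192 to 1518 in the Control pools.

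Creb3l3, the fasting-responsive regulator, was the least different of the 4 genes. Its probe, at chr10:80876571-80876630 on the minus strand, read 6.30, 6.13 and 6.21 in the LKO pools, against 6.20, 6.22 and 6.11 in the Control pools. The groups overlapped, with means of 6.21 ± 0.08 in the LKO pools and 6.18 ± 0.06 in the Control pools (SD, n = 3 each). The log2 difference was 0.03 (SE 0.09, 95% interval -0.19 to 0.26, adjusted p = 0.865), and 0.00 from the value table. Its sign turned under normexp background correction and quantile normalization, and CREBH is also controlled by proteolysis, which transcript levels do not show.

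Creb3l3's relatives and the Golgi proteases that release this family gave 2 higher and 5 lower of 7 tested, with none past the threshold and a median difference of -0.07. The smallest p-values belonged to Atf6, an endoplasmic reticulum stress sensor cut by the same proteases (log2 difference 0.19, adjusted p = 0.310), Creb3l2 (-0.20, adjusted p = 0.315) and Creb3 (0.11, adjusted p = 0.473; 0.04 from the value table). Of 15 genes described as CREBH targets, all were tested, 10 were higher and 5 lower, none passed, and the median was 0.06. Of the same genes 7 were higher and 8 lower with the value table.

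Apoa5, an apolipoprotein that lowers plasma triglyceride, had the smallest p-value of the CREBH targets. It averaged 8.03 ± 0.02 in the LKO pools and 7.78 ± 0.06 in the Control pools (SD, n = 3 each), and every LKO pool lay above every Control pool (log2 difference 0.25, SE 0.09, adjusted p = 0.186). Elovl2, an elongase of polyunsaturated fatty acids, differed by 0.35 (adjusted p = 0.321; 0.52 without LKO pool 3), and G6pc, the glucose-6-phosphatase of gluconeogenesis, by 0.48 (adjusted p = 0.383; 0.67 from the value table, with every LKO pool above the Control pools). For G6pc Control pool 1 was low, at 5.02, against 5.95 and 5.99 in Control pools 2 and 3. The LKO pools read 6.15, 6.43 and 5.84, so the groups overlapped in the scanner values. Fgf21, the fasting hormone that CREBH and PPAR-alpha induce together, differed by 0.17 (SE 0.33, adjusted p = 0.790), with LKO pool 1 high and the other LKO pools within the Control range. Its sign was not stable, with -0.13 from the value table and 0.41 without LKO pool 3.

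**Figure D4:**
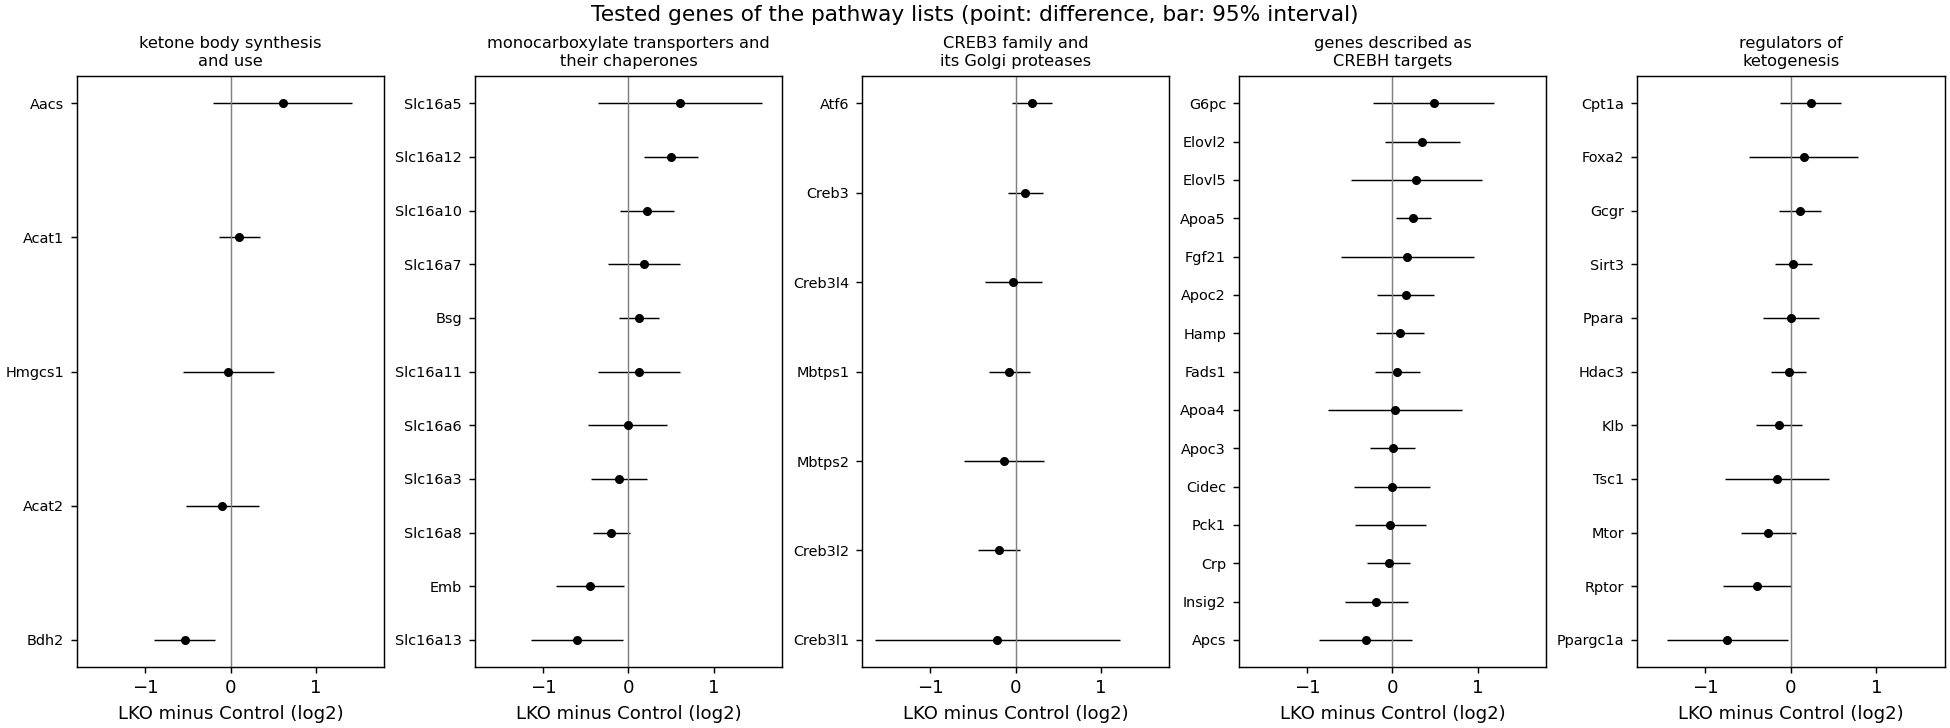
Log2 difference, SIRT1 LKO minus Control (horizontal axis), with its 95% interval for 49 of the 51 tested genes of 5 lists (1 panel each). None passed the threshold, and 25 of the differences drawn are positive and 24 negative.

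Of 11 tested regulators of ketogenesis 5 were higher and 6 lower, none past the threshold, with a median of -0.03. That split depended on the processing: 2 were higher and 9 lower from the value table (median -0.10), and 3 higher and 8 lower with normexp, with quantile normalization and without LKO pool 3 (median -0.11 without the pool). Ppargc1a, the coactivator that SIRT1 deacetylates, averaged -0.35 ± 0.52 in the LKO pools and 0.40 ± 0.35 in the Control pools (SD, n = 3 each; log2 difference -0.75, adjusted p = 0.218). LKO pools 1 and 2 were low and LKO pool 3 lay within the Control range. From the value table every LKO pool lay below the Control pools for Ppargc1a (difference -0.88, adjusted p = 0.0802), and without LKO pool 3 the difference was -1.04 (adjusted p = 0.0579). Rptor and Mtor, of the mTORC1 complex that restrains ketogenesis, differed by -0.40 (adjusted p = 0.234) and -0.26 (adjusted p = 0.313), and from the value table both separated the groups, by -0.49 (adjusted p = 0.0711) and -0.37 (adjusted p = 0.113). Ppara, the nuclear receptor that drives fatty acid oxidation and ketogenesis in fasting, averaged 4.13 ± 0.10 in the LKO pools and 4.13 ± 0.21 in the Control pools (SD, n = 3 each; log2 difference 0.00, adjusted p = 0.993; -0.10 from the value table).

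Over all 5 lists 8 of 51 tested genes had an unadjusted p under 0.05, which is 15.7%, beside 21.2% of all tested probes. The groups did not overlap for 13 of the 51 (25.5%), beside 28.8% of all tested probes.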

How the data were processed

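Liver RNA (500 ng per pool) was labelled with Cy3 and hybridised to 1-colour Agilent whole mouse arrays, per the labels. Scanner files give spot intensity as deposited, written by Feature Extraction 9.5 of Agilent (credited to the submitters' processing notes); per the file headers, the processed intensity has background and spatial trend removed inside each array; well above background, saturation and outlier flags are 0 or 1 values deposited with them. The deposited value table holds a linear intensity per probe made with the Rosetta Resolver error model, per the labels. It equalled the scanner intensity in 5 arrays, without centring or scaling between arrays; how the LKO pool 3 column was made is not stated there, so the scanner files were the main source.

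Groups and replicate numbers came from sample titles. Control spots were left out, outlier spots set missing, spots of 1 probe averaged after log2, and the array's 75th percentile subtracted. A probe entered the test (23592 did) if either group had it well above background in all 3 pools. The LKO minus Control difference was fitted with limma 3.58.1 (lmFit, eBayes) under R 4.3.3; tests were two-sided, adjusted by Benjamini-Hochberg, with 0.05 as the threshold. P-values set the difference between the groups against the spread between pools, which eBayes moderates over all tested probes. They do not separate genotype from slide. Steps were tested on simulated data. Where a listed gene had several tested probes, the brightest stood for it. Symbols were matched by accession to a RefSeq gene table (GRCm38.p6; 22951 of 41174 probes matched, 5141 renamed); positions are printed as deposited (mm7). Without a genome of that build, exon or UTR is left out.

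The members and gene lists were chosen with earlier results of these data known. Named genes are all probes of the 4 members, Sirt1, the 3 smallest p-values of each list and any members past the threshold, genes named whatever their result (Acat1, Bsg, Slc16a7, Ppara and Fgf21), and the 3 genes most like each member. Results for 2 genes that this rule names are left out here. Alternatives were normexp background correction (offset 50), quantile normalization, median centring, no filter on dim probes or a filter on all 6 arrays, outlier spots kept, 1 probe per gene, the slide as a random block, a replicate block, array weights, robust variance with an intensity trend, the value table, and leaving out each replicate. Figures were drawn with matplotlib 3.10.9.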

Additional observations from a re-analysis of the deposited data

How the results depend on the processing

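Probes past the threshold numbered 15 and were 0 with normexp (1681 at an unadjusted p under 0.05), no filter (6859) and the slide as a random block (2632), 24 with 1 probe per gene, 49 with the filter on all arrays, 91 with intensity trend and robust variance, 308 with the value table and 4817 with array weights. They ranged from 0 to 698 when 1 replicate was left out: 698 without LKO pool 3, and 0 without any other pool (3188 to 4492 at an unadjusted p under 0.05). With array weights, Oxct1 probe 2 (-0.41, adjusted p = 0.0183) and Slc16a1 probes 1 (0.40, adjusted p = 0.0483), 2 (0.44, adjusted p = 0.0405) and 3 (1.12, adjusted p = 0.0273) passed, beside 20.4% of all tested probes. So did 3 of 7 tested genes of ketone body synthesis and use, 1 of 11 transporters and chaperones, 2 of 15 CREBH targets and 2 of 11 regulators. Without LKO pool 3, 1 gene of ketone body synthesis and use passed, beside 2.96% of all tested probes. Leaving out pools in turn gave 0 to 1. No other alternative brought a probe of the 4 genes past the threshold. Leaving out 1 pool moved Slc16a1 between 0.23 and 0.50 (probe 1), 0.23 and 0.55 (probe 2) and 0.67 and 1.24 (probe 3), and Oxct1 probe 2 between -0.48 and -0.38. Signs turned for Creb3l3 with normexp (-0.22), quantile normalization (-0.036) and array weights (-0.0074), and over left-out pools it lay between -0.0093 and 0.076. They turned for Oxct1 probe 1 with the value table (0.17), and for Sirt1 probe 2 with normexp (0.10) and the slide block (0.00081), with -0.13 to 0.048 over left-out pools. The causes were not tested.

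The replicate numbers did not pair the pools: deviations of same-numbered pools correlated at 0.01, -0.04 and -0.09, and no pool correlated best with its own number. With the replicate number as a block, 0 probes passed (4366 at an unadjusted p under 0.05), and Slc16a1 probe 3 differed by 0.97 (adjusted p = 0.188) and Oxct1 probe 2 by -0.42 (adjusted p = 0.196). With 3 pools per group, some intervals were wide, and that of Bdh1 probe 1 ran from -0.38 to 1.52 on the log2 scale.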

Other observations

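The genes whose level followed each of the 4 most closely over the 6 arrays were found by Pearson's r among 11741 genes. Only the brightest probe of each member was compared, which is probe 1 in each case. These are descriptions over 6 arrays that share their normalization, and so many genes compared over so few arrays give high values. Bdh1 probe 1 was followed by Retreg3 (r = 0.996), Fbxl19 (r = 0.995) and Fxyd6 (r = 0.994). Each of these genes was lowest in Control pool 1, where Fbxl19 read -3.21 and Fxyd6 -2.41 on the log2 scale. Bdh1 probe 1 was low on that array alone, at 4.93. Bdh1 probe 2 was not low there, at 2.19, so this likeness belongs to probe 1 and not to the gene. Slc16a1 was followed by Rsrc1 (r = 0.993), Psma6, a proteasome subunit (r = 0.990), and Arglu1 (r = 0.990). Like Slc16a1 probe 1, all 3 were highest in LKO pool 1, and none passed the threshold between the genotypes. Oxct1 was followed by the growth factor receptor Fgfr2 (r = 0.990), Gvin1 (r = 0.987) and the cyclin Ccnd2 (r = 0.986). Creb3l3 was followed by Tmem100 (r = 0.989), Acot2, a mitochondrial acyl-CoA thioesterase (r = 0.981), and Gpc4 (r = 0.971).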
